A study of Mus musculus with 8 samples.

Results

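The genes described here are 5 subunits of the phagocyte NADPH oxidase (Cybb, Cyba, Ncf1, Ncf4 and Rac2), the vascular oxidase Nox4 and the 3 superoxide dismutases Sod1, Sod2 and Sod3. They were picked by gene symbol, which found 9 of 9 among the 22063 genes of the deposited table. RNA was sequenced from the aorta of male C57BL/6J mice, with 4 libraries from mice given saline by gavage (vehicle) and 4 from mice given colchicine by gavage at 200 µg per kg per day. Treatment began at 3 weeks of age and lasted 3 weeks. Throughout it, mice of both groups ate chow and took beta-aminopropionitrile (BAPN) in their drinking water at 1 g per kg per day. BAPN blocks lysyl oxidase, which crosslinks elastin and collagen, and is given to young mice to produce aortic dissection; colchicine binds tubulin and is used against inflammation. No group without BAPN was analysed here. The labels do not say whether each library came from a separate mouse, so p-values measure the spread between these libraries, which may be technical in part.

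NADPH oxidases carry electrons from NADPH across a membrane to oxygen. In phagocytes the catalytic subunit Cybb sits in the membrane with its partner Cyba, and the enzyme makes superoxide once cytosolic factors, Ncf1 and Ncf4 among them, and a Rac GTPase join them. Nox4 also pairs with Cyba but needs no cytosolic factor, releases mainly hydrogen peroxide and is abundant in cells of the vessel wall. Superoxide dismutases turn superoxide into hydrogen peroxide and oxygen, Sod1 in the cytosol, Sod2 in mitochondria and Sod3 outside cells, where it is bound to the matrix of the arterial wall.

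Of the 9 genes, 6 had an entry among the RefSeq promoters of build GRCm38.p6, each spanning 250 bases before and 50 after a gene's start. With colchicine Cyba and Ncf1 were lowered and Nox4 was raised. Cybb changed in the direction of Cyba and Ncf1 but was not called. The windows of the membrane pair Cybb and Cyba, of the organiser Ncf1 and of Nox4 are shown, and a link of their sequence to these changes was not tested. Each is written 5′ to 3′ on the gene's strand, and capitals mark matches on either strand to 4 motifs. The first motif is GAGGAA, the core bound by the myeloid factor PU.1. The GC box is read as GGGCGG. The TATA box is read as TATAAA. The last motif is the CCAAT box. The Cybb window lies at chrX:9469275-9469574 (minus strand), Cyba at chr8:122432891-122433190 (minus), Ncf1 at chr5:134229576-134229875 (minus) and Nox4 at chr7:87246399-87246698 (plus).
Cybb: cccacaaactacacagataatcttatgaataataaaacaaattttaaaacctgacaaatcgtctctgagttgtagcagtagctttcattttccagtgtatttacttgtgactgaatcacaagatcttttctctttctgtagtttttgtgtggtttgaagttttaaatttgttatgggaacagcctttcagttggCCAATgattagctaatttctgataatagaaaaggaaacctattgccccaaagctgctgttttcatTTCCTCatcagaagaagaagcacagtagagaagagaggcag
Cyba: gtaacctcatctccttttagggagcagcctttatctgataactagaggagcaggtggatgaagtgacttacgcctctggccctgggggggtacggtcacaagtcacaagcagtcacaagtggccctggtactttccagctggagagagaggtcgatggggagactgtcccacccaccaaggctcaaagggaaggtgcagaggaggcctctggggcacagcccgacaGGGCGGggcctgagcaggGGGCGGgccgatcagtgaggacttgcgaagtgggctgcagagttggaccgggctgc
Ncf1: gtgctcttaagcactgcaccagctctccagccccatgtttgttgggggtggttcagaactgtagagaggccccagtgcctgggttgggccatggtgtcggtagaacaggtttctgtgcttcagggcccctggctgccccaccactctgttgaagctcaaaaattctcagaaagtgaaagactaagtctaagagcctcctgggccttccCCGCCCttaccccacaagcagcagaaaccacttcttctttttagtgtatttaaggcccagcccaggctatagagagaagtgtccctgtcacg
Nox4: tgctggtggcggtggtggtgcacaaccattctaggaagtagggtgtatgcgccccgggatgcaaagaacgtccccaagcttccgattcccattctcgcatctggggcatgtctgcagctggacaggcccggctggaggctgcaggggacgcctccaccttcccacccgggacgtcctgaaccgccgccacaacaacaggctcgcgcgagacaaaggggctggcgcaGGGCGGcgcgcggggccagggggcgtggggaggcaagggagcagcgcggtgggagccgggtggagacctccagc

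The Cybb window was the only one of these 4 to hold GAGGAA, as its reverse complement TTCCTC at bases 260 to 265 of the window, and also held CCAAT at bases 195 to 199. It held no GC box, while the Cyba window held 2 and the Ncf1 and Nox4 windows 1 each. Across all 32851 promoter windows of the same length, 28.3% held GAGGAA, 35.7% GGGCGG, 13.6% TATAAA and 37.4% CCAAT on either strand. The share of G and C bases was 35.3% in the Cybb window, 54.0% in Ncf1, 60.7% in Cyba and 68.3% in Nox4, against a median of 52.7%. The windows of Sod1 and Sod2 each held 4 matches to GGGCGG, some of which overlap in Sod1, and the Sod2 window also held GAGGAA.

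The libraries held 15427898 to 18460006 estimated counts. Vehicle 1 and vehicle 4 stood apart, with 14.9% and 6.21% of their counts in the 4 haemoglobin genes against 0.0419% to 0.318% in the other 6 libraries. They were also highest in mitochondrial transcripts, with 10.4% and 7.21% of counts against 2.26% to 4.87%, and the part of RNA quality in the results was not tested. Myh11, the smooth muscle myosin heavy chain and a defining marker of the aortic wall, was present in every library, at 573 to 3093 CPM (vehicle) and 4886 to 6084 CPM (colchicine). CPM here denotes counts scaled to library size after TMM normalisation. TPM denotes the deposited values, scaled by transcript length as well, the only scale on which levels of different genes are compared. In bulk tissue, fewer cells of a type and less RNA per cell cannot be told apart.

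Colchicine aortas had less RNA for 4 of the 5 phagocyte oxidase subunits and more for Nox4. Ncf4 was 10.9-fold lower, Rac2 9.02-fold, Ncf1 7.88-fold and Cyba 3.04-fold, while Nox4 was 2.99-fold higher. Cybb, the catalytic subunit of the phagocyte enzyme, and the 3 dismutases did not pass the test. Colchicine was compared with vehicle by the edgeR quasi-likelihood test on counts, with Benjamini-Hochberg adjustment over the 13431 genes tested and a threshold of 0.05. All 9 genes entered that test, and 4 were lowered, 1 raised and 4 not called, where 17.0% of all tested genes were lowered and 17.4% raised. CPM values of the groups did not overlap for 5 lower genes (Cyba, Ncf1, Ncf4, Rac2 and Sod1) and 1 higher gene (Nox4), against 17.9% and 21.1% of all tested genes.

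**Figure D1:**
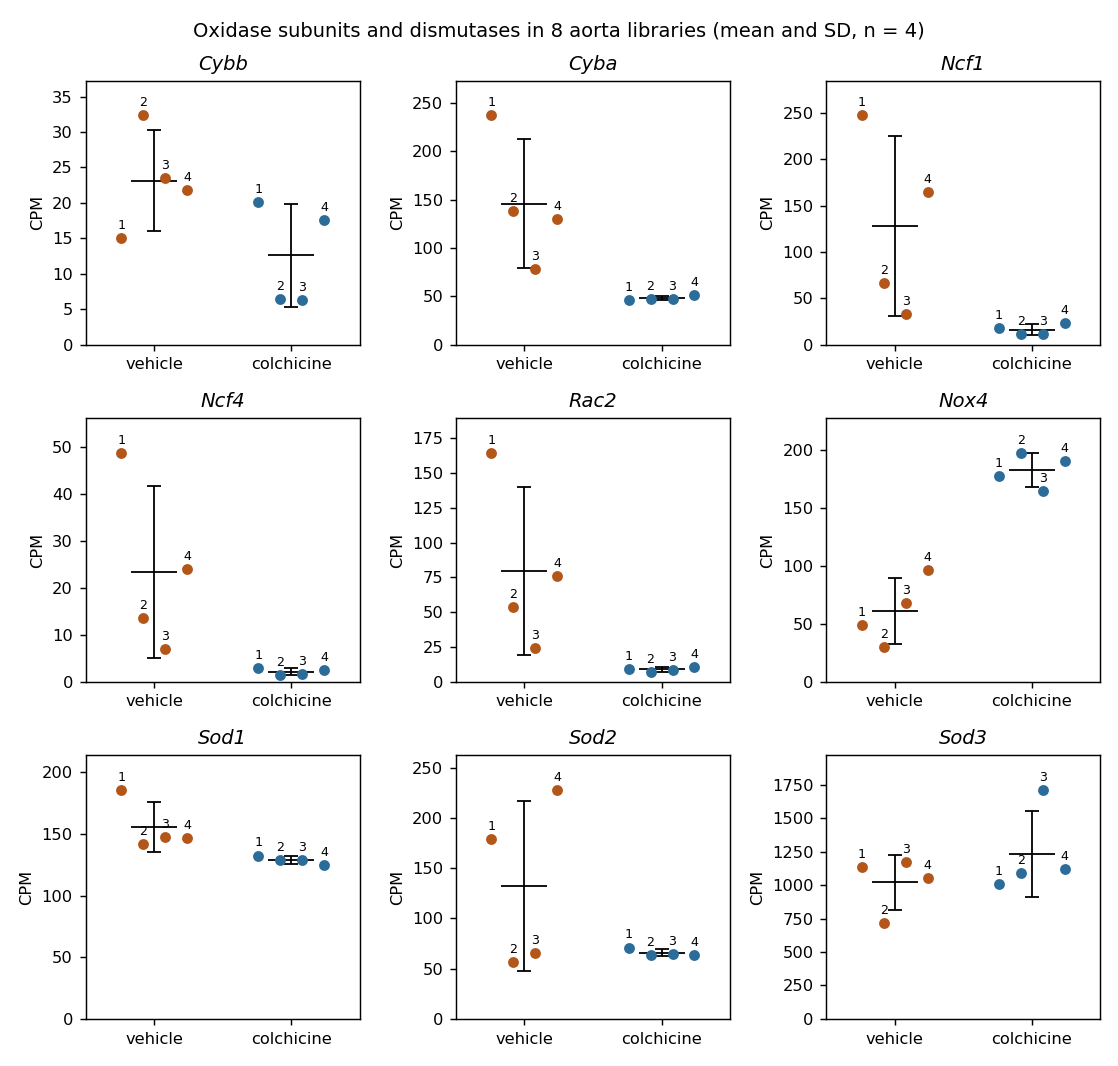
Level of each gene in each library, in CPM on linear axes that start at 0, with library numbers above the points and the mean and SD of the 4 libraries of a group in black. Ncf1, Ncf4, Rac2 and Cyba lie lower in all colchicine libraries than in any vehicle library, Nox4 lies higher, and Cybb, Sod2 and Sod3 overlap.

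Ncf1 (p47phox; ENSMUSG00000015950, GRCm38 chromosome 5, 134220053 to 134229625), the organiser that brings the cytosolic factors to the membrane, was at 247, 66.7, 33.4 and 165 CPM in vehicle 1 to 4 and at 18.2, 11.02, 11.9 and 23.8 CPM in colchicine 1 to 4. The lowest vehicle library thus stood above the highest colchicine library. The means were 128 ± 97.1 and 16.2 ± 5.97 CPM (SD, n = 4 each), a log2 change of -2.98 ± 0.59 (SE, edgeR adjusted p = 0.0085). Vehicle 1 and 4 were the highest libraries, and they were also the highest in haemoglobin and in neutrophil markers.

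Ncf4 (p40phox; ENSMUSG00000071715, chromosome 15, 78244801 to 78262580), which binds a phosphoinositide of the phagosome membrane, was at 48.9, 13.6, 7.05 and 24.1 CPM in vehicle 1 to 4. In colchicine 1 to 4 it was at 2.95, 1.44, 1.55 and 2.58 CPM. The groups were apart, and the colchicine values rest on 25 to 52 counts a library. The log2 change was -3.45 ± 0.59 (edgeR adjusted p = 0.006), the largest fall of the 9 genes, and 267 of the other tested genes had a lower value.

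Rac2 (ENSMUSG00000033220, chromosome 15, 78559167 to 78572783), the GTPase of blood cells that switches the oxidase on, was at 165, 53.6, 24.3 and 76.3 CPM in vehicle 1 to 4 and at 9.24, 6.72, 8.77 and 10.6 CPM in colchicine 1 to 4. Its log2 change was -3.17 ± 0.52 (edgeR adjusted p = 0.00562). Vehicle 1 was again the highest library and vehicle 3 the lowest of its group. The closely related Rac1, found in most cells, had means of 381 ± 83.8 (vehicle) and 344 ± 6.84 CPM (colchicine, SD, n = 4 each). Its change of -0.15 ± 0.17 did not pass (edgeR adjusted p = 0.522). It was 0.06 without vehicle 1 and 4, and 0.32 on log2(TPM + 1) values, where the median gene stood at 0.35.

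Cyba (p22phox; ENSMUSG00000006519, chromosome 8, 122424776 to 122432930), the membrane partner of both Cybb and Nox4, was at 237, 138, 78.6 and 129.7 CPM in vehicle 1 to 4. In colchicine 1 to 4 it was nearly level, at 46.1, 46.97, 47.5 and 51.3 CPM. The log2 change was -1.60 ± 0.29 (edgeR adjusted p = 0.00672). The SD among vehicle libraries was 66.2 CPM, that among colchicine libraries 2.31 CPM.

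Cybb (gp91phox; ENSMUSG00000015340, chromosome X, 9435252 to 9487771) was at 14.98, 32.3, 23.5 and 21.8 CPM in vehicle 1 to 4 and at 20.2, 6.43, 6.33 and 17.5 CPM in colchicine 1 to 4. The groups overlapped, since vehicle 1 lay below colchicine 1 and colchicine 4. Its log2 change of -0.88 ± 0.42 did not pass (edgeR adjusted p = 0.129). Vehicle 1, the library highest in Ncf1, Ncf4, Rac2 and Cyba, was the lowest vehicle library for Cybb. Colchicine 2 and 3 held about the same low level, and colchicine 1 and 4 were higher.

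**Figure D2:**
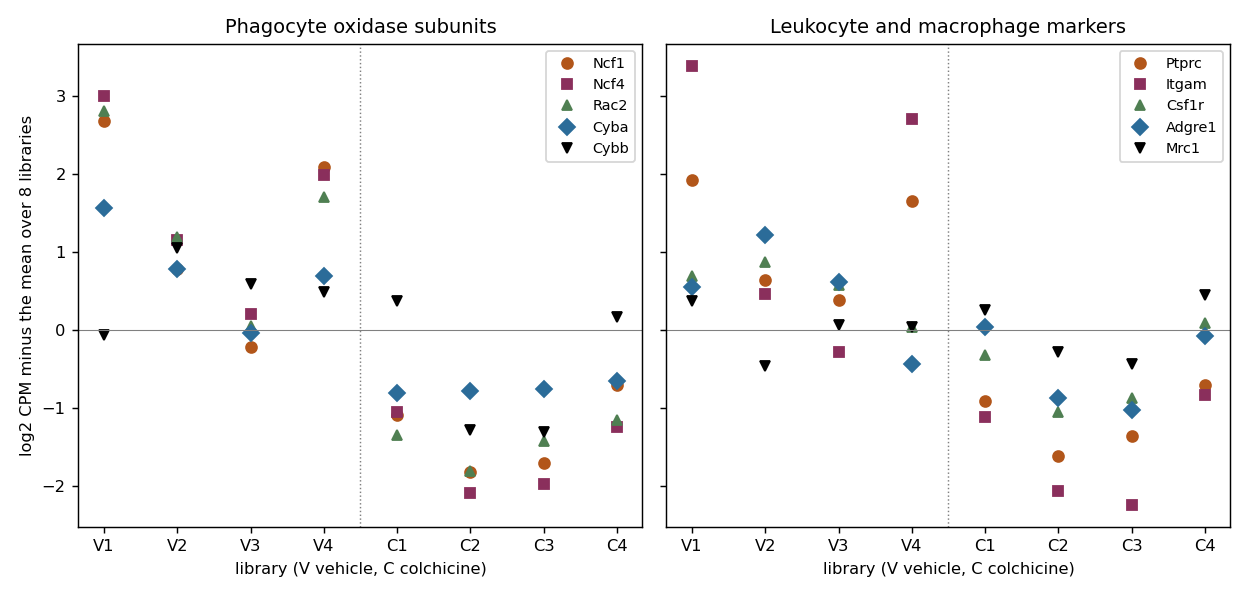
Log2 CPM of each gene minus its own mean over the 8 libraries (V1 to V4 vehicle, C1 to C4 colchicine, dotted line between the groups), for phagocyte oxidase subunits on the left and for the leukocyte marker Ptprc and myeloid and macrophage markers on the right. Ncf1, Ncf4, Rac2 and Ptprc are highest in V1 and V4, whereas Cybb, Csf1r and Adgre1 are highest in V2.

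With vehicle 1 and 4 left out, the 4 lowered subunits still passed with smaller changes. Ncf1 then stood at -1.62 ± 0.37 (edgeR adjusted p = 0.0151), Ncf4 at -2.27 ± 0.38 (0.00785), Rac2 at -2.14 ± 0.31 (0.00664) and Cyba at -1.17 ± 0.20 (0.00848). Cybb stood at -1.14 ± 0.49 (edgeR adjusted p = 0.101) and was not called. In that fit 20.3% of 13746 tested genes were lowered and 20.2% raised. With the erythroid level as a covariate in the 8 libraries, the 4 subunits stood at -2.48 to -1.22 and all passed. Cybb stood at -1.18 ± 0.43 there, close to Cyba at -1.22 ± 0.21, but was not called (edgeR adjusted p = 0.0681). With that covariate 1978 of 13431 tested genes were lowered and 2075 raised.

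**Figure D3:**
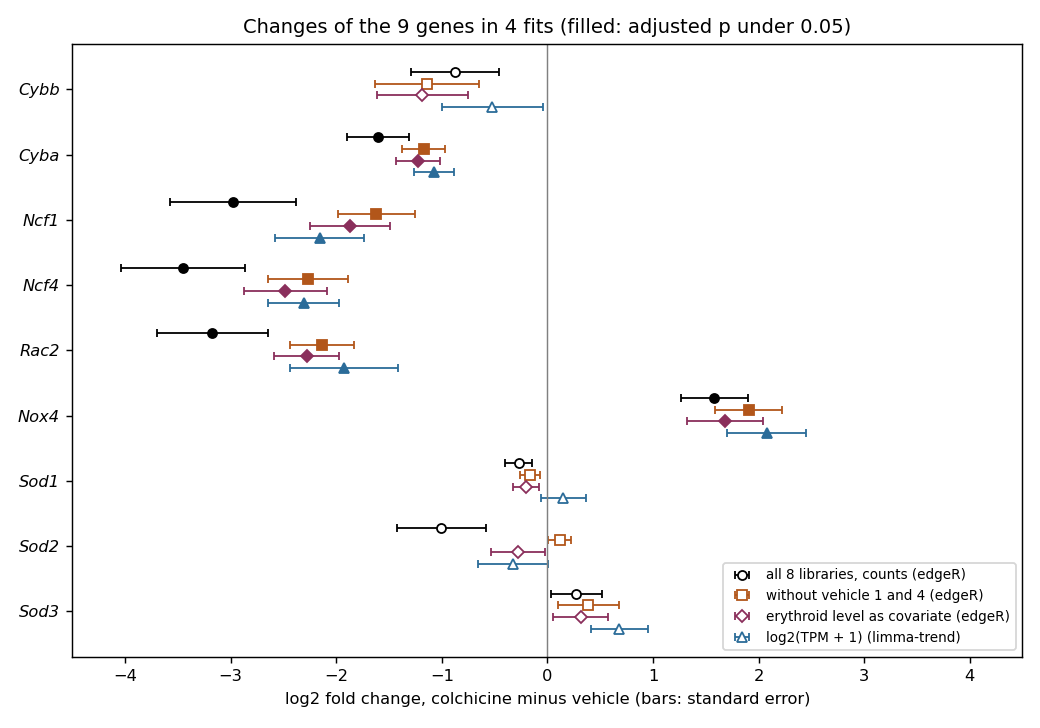
Log2 fold change (colchicine minus vehicle) of the 9 genes with its standard error in 4 fits, filled where the adjusted p was under 0.05. The calls of the 9 genes were the same in all 4 fits, and the falls of Ncf1, Ncf4 and Rac2 were smaller in the other 3 than with all 8 libraries on counts.

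Markers of several blood-derived cell types were also lower, though not all in the same libraries. Ptprc (CD45), carried by all leukocytes, was at 55.4, 22.7, 19.004 and 45.95 CPM in vehicle 1 to 4 and at 4.77 to 8.94 CPM in colchicine libraries, a change of -2.39 ± 0.38 (edgeR adjusted p = 0.00513). The 11 neutrophil markers summed to 2840, 20.2, 13.4 and 727 CPM in vehicle 1 to 4 and to 2.499 to 4.77 CPM in colchicine libraries. Only 3 of the 11 could be tested, and all 3 were lowered, where 17.0% of all tested genes were lowered. S100a8 had 25 to 9977 counts in vehicle and 4 to 16 in colchicine libraries, and S100a9 had 45 to 19701 and 8 to 23. They passed the count filter through the vehicle libraries, so the filter itself favoured a fall. The median log2 change of the 3 was -9.06, and -2.12 without vehicle 1 and 4. The limma-voom test called 0 of these 3. Ly6g, a defining marker, had 0 counts in vehicle 2 and in colchicine 2, 3 and 4. Of 12 monocyte and macrophage markers 8 were lowered and 0 raised, against 17.0% and 17.4% of all tested genes. Their sum was 1959 to 4710 CPM for vehicle and 631 to 1172 CPM for colchicine. Within that list Mrc1, a receptor of resident macrophages, stood at 0.01 (edgeR adjusted p = 0.974), and Csf1r and Adgre1 were highest in vehicle 2, not in vehicle 1 and 4. None of 5 T cell markers was called (log2 changes of -1.83 to 0.21, edgeR adjusted p of 0.129 to 0.884). The part of these cells in the oxidase changes was not tested.

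Log2 TPM ratios set Cybb against such a marker within each library. For Cybb to Ptprc these were -1.90, 0.48, 0.29 and -1.11 (vehicle 1 to 4) and 1.36, 0.42, 0.14 and 0.82 in colchicine 1 to 4. Vehicle 1 and 4 were low and the remaining libraries overlapped (exact two-sided permutation p = 0.143, adjusted p = 0.429 over 6 ratios). The ratio of Cybb to Csf1r, the growth factor receptor of macrophages, averaged -3.44 ± 0.53 in vehicle and -3.61 ± 0.30 in colchicine libraries (SD, n = 4 each, exact permutation p = 0.6). Csf1r itself was lowered (log2 change -1.04 ± 0.28, edgeR adjusted p = 0.0221). The ratio of Cybb to its partner Cyba averaged -5.28 ± 0.98 and -4.81 ± 0.89 (exact permutation p = 0.543). With 4 against 4 libraries the smallest possible exact p is 0.0286, and after adjustment over the 6 ratios a single ratio cannot go below 0.171, so none of these ratios could pass on its own and each is read as a value.

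The genes whose log2 CPM profile over the 8 libraries lay closest to that of Cybb were Clec4a1, a lectin receptor of myeloid cells, Ticam2, an adaptor of Toll-like receptor signalling, and Arxes2. Their root mean square differences from Cybb, after each gene was centred on its own mean, were 0.33, 0.36 and 0.38, among 11893 genes searched. Clec4a1 was at 13.5, 18.9, 13.8 and 10.6 CPM in vehicle 1 to 4 and at 9.86, 4.996, 4.72 and 8.39 CPM in colchicine 1 to 4. Like Cybb, it was highest in vehicle 2 and lowest in colchicine 2 and 3, as the choice by likeness to Cybb implies. Unlike Cybb, Clec4a1 was called lowered (log2 change -1.02, edgeR adjusted p = 0.0257). Ticam2 and Arxes2 were not called (edgeR adjusted p = 0.114 and 0.0925).

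Nox4 was the member that rose. Nox4 (ENSMUSG00000030562, chromosome 7, 87246096 to 87398710) was at 49.3, 29.7, 68.2 and 96.8 CPM in vehicle 1 to 4 and at 177, 197.9, 164 and 191 CPM in colchicine 1 to 4. The lowest colchicine library stood well above vehicle 4, the highest of its group. The means were 60.98 ± 28.6 and 183 ± 14.8 CPM (SD, n = 4 each), a log2 change of 1.58 ± 0.32 (edgeR adjusted p = 0.0085), and 258 of the other tested genes had a higher change. Without vehicle 1 and 4 the change was 1.91 ± 0.32 (edgeR adjusted p = 0.00801).

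The 8 smooth muscle markers summed to 6461 to 22608 CPM (vehicle) and 25790 to 34549 CPM (colchicine), with 4 raised and 0 lowered where 17.4% of all tested genes were raised. The number raised was 2 with the erythroid covariate, where 2075 of 13431 tested genes were raised. It was 6 without vehicle 1 and 4, where 20.2% of all tested genes were raised, and 7 on log2(TPM + 1) values, where 17.8% were. Across vehicle 1 to 4, Nox4 (49.3, 29.7, 68.2 and 96.8 CPM) followed the same order as Myh11 (723, 573, 2131 and 3093 CPM), with vehicle 2 lowest and vehicle 4 highest. The log2 TPM ratio of Nox4 to Myh11 was -3.08, -3.48, -4.17 and -4.20 (vehicle 1 to 4) and -4.16 to -3.89 in colchicine libraries. The groups overlapped, with a difference of -0.34 (exact permutation p = 0.429, adjusted p = 0.6). Endothelial markers moved both ways, with 2 of 5 raised and 2 lowered, where 17.4% of all tested genes were raised and 17.0% lowered. Pecam1 (0.95 ± 0.24) and Vwf (1.18 ± 0.29) were raised, and Kdr (-2.82 ± 0.34) and Cdh5 (-0.83 ± 0.23) were lowered (edgeR adjusted p of 0.00388 to 0.0256). Tie1 was not called. The part of any of these cell types in the Nox4 change was not tested.

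Closest to Nox4 in profile were B3galt1, a galactosyltransferase, Mpp7, a scaffold protein, and Gnai1, an inhibitory G protein subunit, at root mean square differences of 0.13, 0.14 and 0.16. B3galt1 was at 9.03, 5.11, 15.4 and 19.3 CPM in vehicle 1 to 4 and at 30.6 to 45.8 CPM in colchicine libraries. That these genes share the group difference of Nox4 follows from how they were chosen.

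Per transcript length, Nox4 and Cybb made up different shares of their sum in the groups. Nox4 was at 12.96, 16.5, 41.1 and 44.9 TPM in vehicle 1 to 4, and Cybb at 3.11, 14.2, 11.2 and 7.99 TPM. In colchicine 1 to 4, Nox4 was at 109.9, 116.7, 93.8 and 119.6 TPM and Cybb at 9.86, 2.99, 2.85 and 8.66 TPM. Nox4 exceeded Cybb in every library, narrowly in vehicle 2 and most in colchicine 2. Nox4 made up 80.6%, 53.7%, 78.6% and 84.9% of the sum in vehicle 1 to 4 and 91.8% to 97.5% in colchicine libraries. The summed level was 16.1 to 52.9 TPM in vehicle and 96.6 to 128 TPM in colchicine libraries. TPM carries no TMM scaling, and on log2(TPM + 1) values the median gene stood 0.35 higher in colchicine libraries. Part of that gap therefore lies in the scale, and on counts Nox4 was 2.99-fold higher. Nox1, another vascular oxidase, had 0 to 2 counts in each library, under the floor of 3 counts (0.158 to 0.22 CPM), and was not tested.

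Cyba, the partner of both, was at 316, 389, 240 and 306 TPM in vehicle 1 to 4 and at 144, 140.1, 137 and 162 TPM in colchicine 1 to 4. Its TPM was 4.59 to 19.7 times the sum of Cybb and Nox4 in vehicle libraries and 1.17 to 1.42 times that sum in colchicine libraries. The ranges do not overlap, which restates the fall of Cyba and the rise of Nox4 given above.

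**Figure D4:**
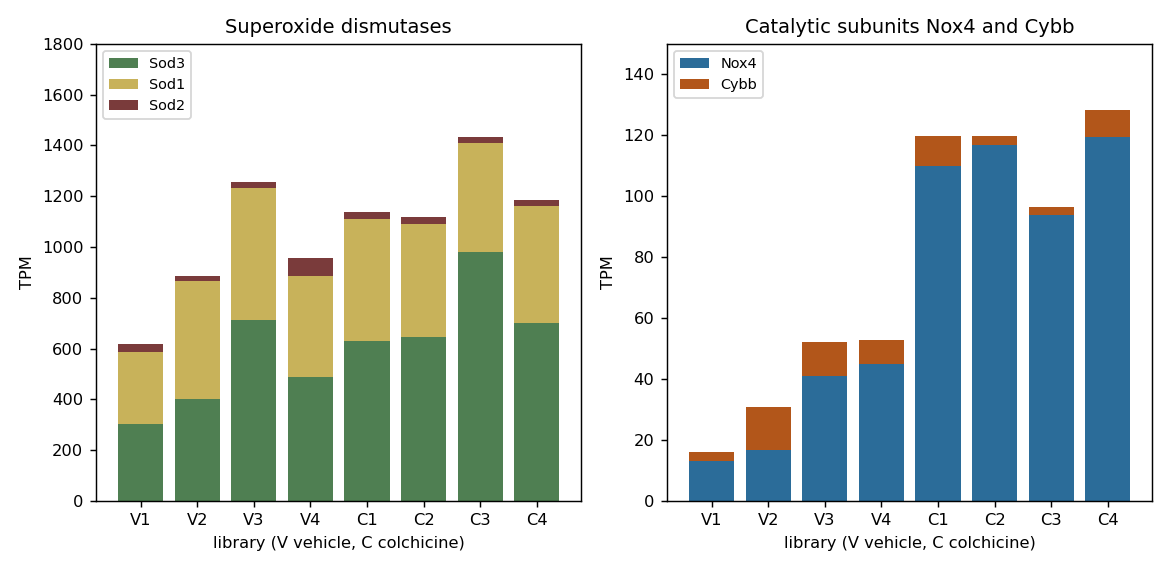
Stacked TPM of the 3 superoxide dismutases (left) and of the catalytic oxidase subunits Nox4 and Cybb (right) in each library (V1 to V4 vehicle, C1 to C4 colchicine), on linear axes from 0. Sod3 and Sod1 make up nearly all dismutase TPM in every library, and the Nox4 bars of the colchicine libraries, 93.8 to 119.6 TPM, are all taller than those of the vehicle libraries.

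None of the dismutases passed the test. Sod1 (ENSMUSG00000022982, chromosome 16, 90220754 to 90226329), the copper and zinc enzyme of the cytosol, was at 186, 142, 148 and 147 CPM in vehicle 1 to 4 and at 133, 129.2, 128.5 and 125 CPM in colchicine 1 to 4. The groups were apart by a small margin, and the log2 change was -0.27 ± 0.13 (edgeR adjusted p = 0.131). On log2(TPM + 1) values it stood at 0.15 ± 0.21, where the median over all genes was 0.35. The sign thus depended on the scale, while relative to that median Sod1 stood at -0.20.

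Sod2 (ENSMUSG00000006818, chromosome 17, 13006846 to 13040063), the manganese enzyme of mitochondria, was at 179, 56.9, 65.1 and 228 CPM in vehicle 1 to 4. In colchicine 1 to 4 it was at 71.1, 63.7, 64.6 and 64.04 CPM. Vehicle 1 and vehicle 4 alone were high, vehicle 3 lay among the colchicine libraries and vehicle 2 below them. The log2 change was -1.01 ± 0.42 (edgeR adjusted p = 0.0906). It was 0.12 ± 0.11 without vehicle 1 and 4 (edgeR adjusted p = 0.423) and -0.61 without vehicle 4 alone (0.213). It passed without vehicle 2 (-1.26, edgeR adjusted p = 0.0327) or vehicle 3 (-1.28, 0.0401), so its call was set by single vehicle libraries.

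The genes closest to Sod2 in profile were Tmed5, a cargo receptor of the secretory pathway, Vegfa, the endothelial growth factor, and Gcnt2, a glycan-branching enzyme, at root mean square differences of 0.23, 0.23 and 0.23. Vegfa was at 93.3, 34.4, 32.8 and 107.6 CPM in vehicle 1 to 4 and at 24.6 to 35.7 CPM in colchicine libraries. Tmed5, Vegfa and Gcnt2 were each higher in vehicle 1 and 4 than in the remaining 6 libraries, as the choice by likeness to Sod2 implies. The log2 TPM ratio of Sod2 to Sod1 was -3.23, -4.48, -4.34 and -2.52 (vehicle 1 to 4) and -4.18 to -4.07 in colchicine libraries (exact permutation p = 0.429, adjusted p = 0.6).

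Sod3 (ENSMUSG00000072941, chromosome 5, 52363791 to 52371418), the extracellular enzyme, had the highest mean TPM of the 9 genes in both groups, at 476 ± 174 TPM in vehicle and 740 ± 164 TPM in colchicine libraries (SD, n = 4 each). In single vehicle libraries the order differed, with Cyba (316 TPM) above Sod3 (301 TPM) in vehicle 1 and Sod1 (463 TPM) above Sod3 (403 TPM) in vehicle 2. In CPM Sod3 was at 1140, 720.4, 1176 and 1051 in vehicle 1 to 4 and at 1012, 1093, 1715 and 1119 in colchicine 1 to 4. The groups overlapped, vehicle 2 being the lowest library and colchicine 3 the highest, and the log2 change of 0.27 ± 0.24 did not pass (edgeR adjusted p = 0.395). Without colchicine 3 it was 0.08.

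Sod3 was also set against Myh11. The log2 TPM ratio of Sod3 to Myh11 was 1.46, 1.13, -0.06 and -0.76 (vehicle 1 to 4) and -1.64, -1.68, -0.71 and -1.33 in colchicine 1 to 4. The lowest vehicle library lay just under colchicine 3, and the difference was -1.78 (exact permutation p = 0.0571, adjusted p = 0.343, which cannot go below 0.171 for a single ratio). Uchl1, a deubiquitinase, Igfbp7, a secreted binding protein, and Camkk1, a kinase, had the profiles closest to Sod3, at root mean square differences of 0.09, 0.14 and 0.15.

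Among the dismutases, Sod3 made up 45.4% to 56.5% of the summed TPM in vehicle and 55.3% to 68.4% in colchicine libraries. Sod1 made up 41.4% to 52.2% and 29.9% to 42.2%, and Sod2 2.04% to 7.25% and 1.69% to 2.52%. The ranges of all 3 shares overlapped between the groups. In both groups the order by mean TPM began with Sod3, Sod1 and Cyba. In vehicle libraries the ranges of mean ± SD overlapped for Sod3 and Sod1 (417 ± 100.5 TPM). They also overlapped for Rac2 (40.3 ± 16.7 TPM), Sod2 (36.5 ± 22.3 TPM), Nox4 (28.9 ± 16.5 TPM) and Ncf4 (23.9 ± 9.71 TPM). Within each vehicle library, however, Rac2 stood above Ncf4. Rac2 was at 53.5, 36.9, 18.1 and 52.8 TPM in vehicle 1 to 4, and Ncf4 at 33.8, 21.3, 11.5 and 28.8 TPM. In colchicine libraries Nox4 (109.99 ± 11.5 TPM) came next after Cyba, above Sod2 (25.9 ± 2.01 TPM), and Cybb (6.09 ± 3.69 TPM) and Ncf4 (3.77 ± 1.03 TPM) were lowest.

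On log2(TPM + 1) values, tested with limma-trend, the calls of the 9 genes were the same as on counts, with 4 lowered and 1 raised. There 6.56% of 13152 tested genes were lowered and 17.8% raised, and the median gene stood at 0.35. Relative to that median, Nox4 stood at 1.73, Cyba at -1.42, Ncf1 at -2.51, Ncf4 at -2.66 and Rac2 at -2.28. The Rac2 value rests in part on 28.5 TPM in colchicine 4 and 52.8 TPM in vehicle 4. At the length of its longest transcript the same counts would be 8.17 and 43.7 TPM. The fit was not repeated with those values.

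Other genes of the oxidase pathway were described from a list of 17. Of these, 10 were tested, with 4 lowered and 0 raised and a median log2 change of -0.43. Over all tested genes 17.0% were lowered and 17.4% raised, and the median was -0.03. The other 7, Nox1, Nox3, Noxa1, Duox1, Duox2, Duoxa1 and Duoxa2, were too low to test, and Nox3 and Noxa1 had 0 counts in every library.

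Vav1, the exchange factor that loads Rac in blood cells, was at 65.1, 33.4, 17.3 and 44.5 CPM in vehicle 1 to 4 and at 3.40, 2.87, 3.89 and 5.10 CPM in colchicine 1 to 4. The groups were apart, with vehicle 1 and 4 highest as for Ncf1 (log2 change -3.39 ± 0.40, edgeR adjusted p = 0.00388). Prkcb, a kinase of the Ncf1 protein, averaged 5.10 ± 0.92 (vehicle) and 1.75 ± 0.53 CPM (colchicine; log2 change -1.54 ± 0.28, edgeR adjusted p = 0.00702). Cybc1, a chaperone that Cybb and Cyba need to mature, was at 59.8 ± 13.7 and 31.7 ± 2.40 CPM (-0.92 ± 0.17, edgeR adjusted p = 0.00717). Poldip2, a protein that binds Cyba and enhances Nox4, was at 67.7 ± 7.90 and 52.4 ± 2.99 CPM (-0.37 ± 0.12, edgeR adjusted p = 0.0428). That call was lost without vehicle 2 or 4 or any colchicine library (0.0555 to 0.101). It was also lost with no scaling factors (0.217), with no low-count filter (0.0747) and with the replicate number as a block (0.15). On log2(TPM + 1) values the sign of Poldip2 turned (0.04), though it lay below the median gene there (0.35). Without vehicle 1 and 4, 5 of 11 tested genes of this list were lowered and 1 was raised, against 20.3% and 20.2% of all tested genes. On log2(TPM + 1) values 1 of 10 was lowered and 0 raised, where 6.56% of all genes were lowered.

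The list of 19 other genes that make or remove superoxide and peroxide was tested in full, with 10 lowered and 0 raised and a median log2 change of -0.75, where 17.0% of all tested genes were lowered and 17.4% raised. Nos2, the inducible nitric oxide synthase of activated macrophages, was at 9.40, 7.52, 5.42 and 4.49 CPM in vehicle 1 to 4 and at 0.227 to 0.329 CPM in colchicine libraries. All vehicle libraries stood above all colchicine libraries, those without much haemoglobin included. The colchicine values rest on 4 to 6 counts a library, near the floor of 3 counts, against 73 to 137 in vehicle. Nos2 thus passed the count filter through the vehicle libraries. Its log2 change was -4.54 ± 0.34 (edgeR adjusted p = 0.000939), and -4.70 to -1.68 over 22 alternatives. Xdh, xanthine oxidoreductase, a further source of superoxide, was at 83.4 ± 15.6 and 41.1 ± 6.27 CPM (-1.02 ± 0.17, edgeR adjusted p = 0.00567).

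Atox1, a copper chaperone, averaged 51.7 ± 14.1 (vehicle) and 25.8 ± 2.96 CPM (colchicine; -1.004 ± 0.199, edgeR adjusted p = 0.00831). Prdx2, a peroxiredoxin that reduces hydrogen peroxide, was at 178 ± 33.5 and 104 ± 8.13 CPM (-0.78 ± 0.16, edgeR adjusted p = 0.0095). The remaining members lowered were Prdx1, Prdx3, Prdx5, Prdx6, Gpx3 and Gpx4, named after their values were seen. The direct partners of the dismutases did not pass. Ccs, which loads copper into Sod1, stood at -0.19 ± 0.15 and Atp7a, which supplies copper to Sod3, at 0.42 ± 0.26 (edgeR adjusted p = 0.347 and 0.219). On log2(TPM + 1) values Ccs stood at 0.21, where the median gene stood at 0.35.

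The number of calls in this second list depended on the scale. Without vehicle 1 and 4, 11 of its 19 members were lowered and 0 raised, where 20.3% of all tested genes were lowered. On log2(TPM + 1) values 3 were lowered and 0 raised, where 6.56% of all tested genes were lowered. The list median on that scale was -0.27, where the median gene stood at 0.35. There Xdh, Atox1 and Prdx2 (adjusted p of 0.0571 to 0.265), and Prkcb and Cybc1 of the first list (0.0569 and 0.14), did not pass.

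In the annotation deposited with the table, 5 of the 9 genes (Cybb, Cyba, Ncf1, Ncf4 and Nox4) carried the term NADPH oxidase complex, given to 12 genes in all. Superoxide dismutase activity was carried by Sod1, Sod2 and Sod3 among 5 genes in all. Ncf4 and Rac2 lie 297 kb apart on chromosome 15, and Ncf1 and Sod3 are both on chromosome 5.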

How the data were processed

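Polyadenylated RNA libraries of mouse aorta were made with a SMARTer kit, per the labels. The authors deposited estimated counts and TPM per Ensembl gene and library, per the file headers; 1 TPM header lacked its unit, and that column had the same sum as the other 7. The submitters' processing notes name build mm10; no source used here gives the aligner, quantifier, annotation or handling of strand, so reads shared by overlapping genes cannot be traced.

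Estimated counts were rounded. Genes were kept by filterByExpr (13431 of 22063), scaled with TMM factors (0.762 to 1.08) and tested with edgeR 4.0.16 quasi-likelihood in R 4.3.3, colchicine against vehicle, two-sided, with no covariate and Benjamini-Hochberg adjustment over all tested genes (threshold 0.05). A standard error is the absolute log2 change divided by the square root of F. The procedure was tested on simulated counts that gave every gene the same dispersion and held no outlying library. That test does not cover the differences among the vehicle libraries. At 15427898 to 18460006 counts a library, counting error is small for genes with many counts. It is larger for genes with few, such as Ncf4 (25 to 52 counts in colchicine libraries) and Nos2 (4 to 6). Floors cover counting error alone. Only 5.89e-05% of counts fell in the 30 genes that lack a symbol.

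Ratios of 2 genes per library (pseudocount 0.01 TPM) were compared by exact two-sided permutation over 70 assignments. Alternatives were DESeq2 1.42.0, limma 3.58.1 (voom, and trend on log2(TPM + 1) with genes kept from a group mean of 1 TPM), other scalings and filters, robust dispersion, a replicate block, an erythroid covariate, libraries left out, and thresholds of 0.01 and 0.1. Ratios from CPM were added after the data were seen.

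Members and lists were chosen with earlier results of these data known. Named genes are all members, the 4 list genes with the smallest p, direct partners of members, and the 3 genes nearest in log2 CPM profile (prior count 2, mean of at least 1) to Cybb, Nox4, Sod2 and Sod3; exceptions are stated, and 1 gene of the list of other oxidase genes is not reported here. Gene positions are from GENCODE M21 (GRCm38, the assembly mm10 names), promoters from RefSeq.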

Additional observations from a re-analysis of the deposited data

Results flagged for a closer look

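In 4 of 70 groups of 4 libraries checked, a library lay far from the other 3 on the log2 scale, where chance alone gives about 1 in 20. Sod1 was higher in vehicle 1 (186 CPM) than in vehicle 2 to 4, and Sod2 was higher in colchicine 1 (71.1 CPM) than in colchicine 2 to 4. Xdh was higher in vehicle 2 (106.7 CPM) than in the other vehicle libraries. Atp7a was lower in vehicle 1 (4.70 CPM) than in the other vehicle libraries.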

How the results depend on the processing

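Ncf1, Ncf4, Rac2, Cyba and Nox4 kept their direction and their call in all 24 alternatives run (adjusted p up to 0.049), with changes of -3.33 to -1.62, -3.79 to -2.27, -3.50 to -1.93, -1.84 to -1.08 and 1.35 to 2.12. Cybb (-1.22 to -0.52) and Sod3 (0.08 to 0.68) were called in none. With DESeq2, Sod1 (-0.29) and Sod2 (-1.03) passed; Sod2 (-1.01) also passes at a threshold of 0.1, was 0.12 without vehicle 1 and 4, and ranged from -1.28 to -0.61 with 1 library left out. On log2 TPM with pseudocount 1 or no filter the signs of Sod1 (0.15), Rac1 (0.32), Ccs (0.21) and Poldip2 (0.043) turned. With pseudocount 1 all of them lay below the median gene (0.35). With pseudocount 0.1 they were 0.15, 0.32, 0.22 and 0.046. The cause was not tested. Rac1 was 0.064 without vehicle 1 and 4 and 0.0066 with the erythroid covariate. All genes called numbered 4619 (2342 raised, 2277 lowered), 2207 to 5058 with 1 library left out (898 to 2420 raised, 1309 to 2642 lowered; in all 2377 without colchicine 1, 2207 without colchicine 2 and 2922 without colchicine 4, and 1512 raised without vehicle 1), 3001 with pseudocount 0.1 (867 lowered), 2533 without a filter on TPM (784 lowered), 863 lowered with pseudocount 1, and 1404 at a threshold of 0.01 (603 raised, 801 lowered). With the replicate number as a block (replicate block) 2305 genes passed (1121 raised, 1184 lowered), and no member's call changed. Same-numbered libraries did not deviate together (correlations of -0.25 to 0.03), and no library correlated best with its own number. With 4 libraries a group this cannot exclude a weak pairing, and the labels do not say that the numbers pair libraries. The difference in the ratio of Cybb to Ptprc was 1.24, and 0.30 without vehicle 1 and 4; that of Cybb to Cyba was 0.47, and -0.21 there; that of Sod2 to Sod1 was -0.48, and 0.29 there. The difference for Cybb to Csf1r was -0.17, -0.39 to 0.031 with 1 library left out, and 0.057 from CPM. With 1 library left out, Cybb to Ptprc ranged from 0.80 to 1.59.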

Other observations

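The TPM of Rac2 did not follow its counts in colchicine 4. The count divided by the TPM, scaled on 423 genes with a single annotated transcript, gave a length of 3038 bases for Rac2 in 6 libraries, that of its longest transcript. It gave 2513 bases in vehicle 4 and 870.5 bases in colchicine 4, where Rac2 stood at 28.5 TPM against 4.89 to 7.06 TPM in the other colchicine libraries. At the full length the same counts would be 8.17 TPM. The same calculation gave 4751 to 4752 bases for Cybb in every library. It gave 1127 to 1455 bases for Ncf4, so TPM values of Ncf4 also carry a length that differs between libraries.

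Between Ncf4 and Rac2 on chromosome 15 lie 7 tested genes, of which 3 were lowered and 0 raised, against 17.0% and 17.4% of all tested genes, a description of a few neighbouring genes with no test of the interval. The lowered ones were Csf2rb and Csf2rb2, beta chains of myeloid cytokine receptors (-4.84 ± 0.70 and -4.28 ± 0.60), and Il2rb, a receptor chain of T and NK cells (-1.45 ± 0.36; edgeR adjusted p of 0.00431 to 0.0164). Csf2rb and Csf2rb2 are near-identical copies whose reads could have been split between them. Tst, Mpst, Kctd17 and C1qtnf6 stood at -0.61 to 0.05 and did not pass.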
